A study of Mus musculus with 6 samples.

Results

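The 9 genes described here were Twist1, Twist2, Snai1, Snai2, Zeb1, Zeb2, Prrx1 and Prrx2, which encode transcription factors linked to epithelial-mesenchymal transition (EMT), and Vim, which encodes vimentin, an intermediate filament protein of mesenchymal cells. They were taken by symbol from the 18152 genes of the expression table, and all 9 were found and passed the filter on low counts that kept 14131 genes. The tissue was the inner enamel epithelium (IEE) of the mandibular first molar (MM1) at E18.5, excised under the microscope from frozen head sections with a laser. RNA-seq was performed on 3 libraries per genotype, Kdf1 fl/fl mice (labelled control or WT, here control) and mice that are K14-Cre;Kdf1 fl/fl (labelled cKO). Both groups carry floxed Kdf1 alleles, and only the latter carry Cre recombinase, driven by the keratin 14 promoter in epithelial cells, so that mesenchymal cells keep the gene. Kdf1 encodes keratinocyte differentiation factor 1.

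EMT is the process by which epithelial cells lose their junctions and polarity and acquire the migratory features of mesenchyme. SNAIL and ZEB proteins are zinc finger repressors that bind E-box sequences, the TWIST proteins are basic helix-loop-helix factors that bind E-boxes with a partner, and the PRRX proteins are paired-type homeodomain factors. In the tooth germ several of these genes are also known as mesenchymal genes of the neural crest-derived dental papilla, which lies directly under the IEE. Libraries held 14713918 to 16675133 counts, and the replicates of a group differed by more than sampling noise. Kdf1 had 836, 731 and 835 counts in the control libraries and 0, 1 and 0 counts in the cKO libraries. Levels are given as CPM, counts scaled to a common library total, with library sizes scaled by TMM, for comparing libraries, and as the authors' TPM, which also allow for transcript length, for comparing genes.

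The promoters of 4 genes are shown because the E-box CAGGTG, with its reverse complement CACCTG, is the known core of SNAIL and ZEB binding sites. The windows hold the 250 bases before the RefSeq start site in GRCm38.p6, written 5′ to 3′ on the gene's own strand, and capitals mark every match to the wider E-box CANNTG. Grhl3 and Cldn4 were picked as epithelial genes that fell in the cKO libraries and held such a word, so they do not stand for all epithelial genes. Snai1 was the only matched gene of the 9 with such a word, and Twist1 is shown as one without.
Grhl3, chr4:135573633-135573882, minus strand: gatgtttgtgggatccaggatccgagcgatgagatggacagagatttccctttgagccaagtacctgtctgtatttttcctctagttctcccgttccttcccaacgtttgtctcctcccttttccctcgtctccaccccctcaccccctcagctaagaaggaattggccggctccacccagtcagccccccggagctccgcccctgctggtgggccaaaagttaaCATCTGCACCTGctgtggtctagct
Cldn4, chr5:134946935-134947184, minus strand: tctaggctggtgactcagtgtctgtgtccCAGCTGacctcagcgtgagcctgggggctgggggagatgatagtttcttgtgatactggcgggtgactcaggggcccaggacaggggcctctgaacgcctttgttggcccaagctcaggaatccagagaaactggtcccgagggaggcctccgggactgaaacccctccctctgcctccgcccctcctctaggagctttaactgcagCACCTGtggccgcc
Snai1, chr2:167537945-167538194, plus strand: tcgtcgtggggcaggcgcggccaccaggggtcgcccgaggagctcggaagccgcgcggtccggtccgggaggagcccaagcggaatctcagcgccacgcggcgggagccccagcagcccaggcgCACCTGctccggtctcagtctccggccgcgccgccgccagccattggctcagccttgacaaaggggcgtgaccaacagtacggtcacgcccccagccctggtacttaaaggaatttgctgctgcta
Twist1, chr12:33957421-33957670, plus strand: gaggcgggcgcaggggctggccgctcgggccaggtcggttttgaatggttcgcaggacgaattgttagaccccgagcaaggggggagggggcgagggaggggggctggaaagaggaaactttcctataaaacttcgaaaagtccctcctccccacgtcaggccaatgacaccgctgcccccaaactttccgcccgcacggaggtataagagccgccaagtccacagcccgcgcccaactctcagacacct

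Of the 9 genes, Twist1 rose in the cKO IEE at the study's thresholds in edgeR's quasi-likelihood test, and the other 8 did not pass them in that test. The thresholds, here the criterion, were a log2 fold change of at least 1 in size and an adjusted p of at most 0.05. The study names no test for them. The fitted log2 fold changes of all 9 were above 0, with a median of 1.49 beside -0.0043 over all genes tested. Prrx1 had the highest at 2.59 and Snai2 the lowest at 0.01. Over all genes tested, 0.142% were called higher by the criterion. An unadjusted p of at most 0.05 with a higher level was reached by 7 of the 9 and by 13.0% of all genes, and a log2 fold change of at least 1, also by 7, was reached by 9.23% of all genes. In 6 of the 9 (Twist1, Snai1, Zeb1, Zeb2, Prrx1 and Prrx2) every cKO library lay above every control library, as it did in 14.5% of all genes. Deviations of same-numbered libraries correlated at 0.135, 0.324 and 0.499 across genes, although pairing is not stated for these libraries. Control replicate 2 with cKO replicate 1 reached 0.144, above the lowest of these. The numbers were read as pairs from these same data, so p-values from the fit with that block are no independent support. With the replicate number as a block 6 of the 9 passed the criterion (Twist1, Twist2, Snai1, Zeb1, Prrx1 and Prrx2), beside 4.16% of all genes called higher. DESeq2 also called 6 (Twist1, Snai1, Zeb1, Zeb2, Prrx1 and Prrx2), beside 5.05% of all genes called higher. Counting both directions, DESeq2 called 980 genes and edgeR 61. The total of differentially expressed genes that the study reports is far closer to that of DESeq2. Which of the 9 were among the study's genes is not stated. The call of Twist1 was at the edge of the criterion, since 70 of the 77 genes with an adjusted p of at most 0.05 had one between 0.049 and 0.05. In the same fit 12 of 13 dental papilla markers were above 0, with a median log2 fold change of 1.49, and 11 of 12 dental epithelium markers were below 0, with a median of -0.79. In RNA from captured tissue, fewer cells of a type and less RNA per cell cannot be told apart.

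**Figure D1:**
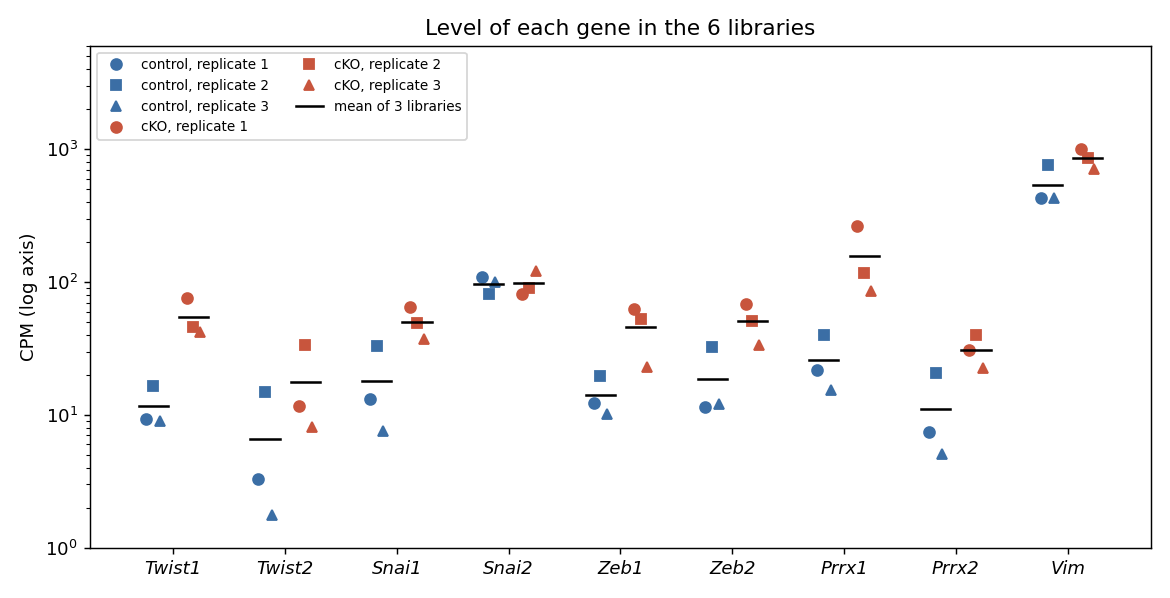
Level of each of the 9 genes in CPM on a log axis, with 1 point per library, control in blue and cKO in red, marker shapes for replicate numbers and black lines for the mean of 3 libraries. Replicate 2 was the highest control library for 8 genes, and the groups overlapped for Twist2, Snai2 and Vim.

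Twist1, a factor required for cranial neural crest mesenchyme, had 9.29, 16.5 and 8.97 CPM in control replicates 1, 2 and 3 and 75.9, 45.8 and 41.9 CPM in cKO replicates 1, 2 and 3. Its lowest cKO value was 2.53 times its highest control value, so the groups stood clearly apart. The means were 11.6 ± 4.28 and 54.5 ± 18.6 CPM (SD, n = 3), a log2 fold change of 2.23 ± 0.33 (SE) with an adjusted p of 0.0498 in edgeR. Leaving out each library in turn gave log2 fold changes from 1.93 to 2.57, and the call was kept only without cKO replicate 3, with adjusted p from 0.0476 to 0.227.

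Twist2, the paralogue of Twist1 and a factor of dermal and craniofacial mesenchyme, had the largest SE of the 9. Its levels were 3.26, 14.8 and 1.77 CPM in the control libraries and 11.7, 33.5 and 8.11 CPM in the cKO libraries. The groups overlapped, since control replicate 2 exceeded 2 of the 3 libraries of the other group, but within each replicate number the cKO library was the higher one. The log2 fold change was 1.43 ± 0.85 (SE) with an adjusted p of 0.338 in edgeR, and 1.69 ± 0.25 with an adjusted p of 0.0147 with the replicate block. Leaving out each library in turn moved it from 0.60, without cKO replicate 2, to 2.81, without control replicate 2. In GENCODE M21, 45.7% of the 50-base words of its transcripts were shared with Gm29100, annotated on the opposite strand, and the library kit is not stated to keep strand, so reads of the 2 genes may not be told apart. Gm29101, which overlaps Twist2 on the same strand, shared no such word. Zeb1, Zeb2 and Prrx1 also lie opposite annotated antisense genes, none of which has a row in the table.

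Snai1, the repressor known for silencing E-cadherin, had 13.2, 33.1 and 7.58 CPM in the control libraries and 64.4, 49.3 and 37.4 CPM in the cKO libraries. The groups did not overlap, but the lowest value of the upper group was only 1.13 times the highest of the lower, control replicate 2. This gave a log2 fold change of 1.49 ± 0.51 (SE) with an adjusted p of 0.143 in edgeR, 0.0240 in DESeq2 and 0.0480 with the replicate block.

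Snai2, also named Slug and known in epithelial progenitors as well as in mesenchyme, was the exception among the transcription factors. It had 109.9, 81.5 and 99.4 CPM in the control libraries and 81.8, 89.5 and 122.0 CPM in the cKO libraries, so that the groups overlapped over most of their range. Its log2 fold change was 0.01 ± 0.19 (SE) with an adjusted p of 0.976 in edgeR. Across the 6 libraries its log2 CPM had a negative Pearson r with each of the other 8 genes, from -0.56 to -0.27, given as a description of 6 points that share library and scaling.

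Zeb1, a zinc finger and homeodomain repressor of epithelial genes, had 12.3, 19.6 and 10.2 CPM in the control libraries and 62.2, 52.4 and 22.7 CPM in the cKO libraries. Replicate 3 of the latter was well below the others, at 1.16 times the highest control value. The fitted log2 fold change was 1.70 ± 0.41 (SE) with an adjusted p of 0.0808 in edgeR, 0.000913 in DESeq2 and 0.0155 with the replicate block. Zeb2, its paralogue, had 11.4, 32.6 and 12.1 CPM in the control libraries and 68.4, 51.2 and 33.7 CPM in the cKO libraries. Its groups almost touched, the nearest values being 1.03 times apart. The log2 fold change was 1.45 ± 0.46 (SE) with an adjusted p of 0.125 in edgeR, 0.0155 in DESeq2 and 0.0557 with the replicate block.

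Prrx1, a homeobox gene of limb and craniofacial mesenchyme, had 21.9, 40.3 and 15.5 CPM in the control libraries and 265.8, 116.3 and 86.0 CPM in the cKO libraries. The groups were 2.13 times apart at their nearest values, and cKO replicate 1 stood above the other 2. This gave a log2 fold change of 2.59 ± 0.52 (SE) with an adjusted p of 0.0667 in edgeR, 3.93e-06 in DESeq2 and 0.0217 with the replicate block. Prrx2, its paralogue, had 7.47, 20.5 and 5.05 CPM in the control libraries and 30.8, 39.8 and 22.5 CPM in the cKO libraries. The nearest values of its groups were 1.09 times apart. Its log2 fold change was 1.49 ± 0.51 (SE) with an adjusted p of 0.143 in edgeR, 0.0268 in DESeq2 and 0.0178 with the replicate block.

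Vim, the structural gene among the 9, had 432.4, 763.3 and 430.1 CPM in the control libraries and 1001 CPM, 855.6 and 714.3 CPM in the cKO libraries. The groups overlapped through control replicate 2, which was above the lowest cKO library. The fitted log2 fold change was 0.66 ± 0.26 (SE) with an adjusted p of 0.179 in edgeR, and it passed the criterion in neither DESeq2 nor the fit with the replicate block.

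**Figure D2:**
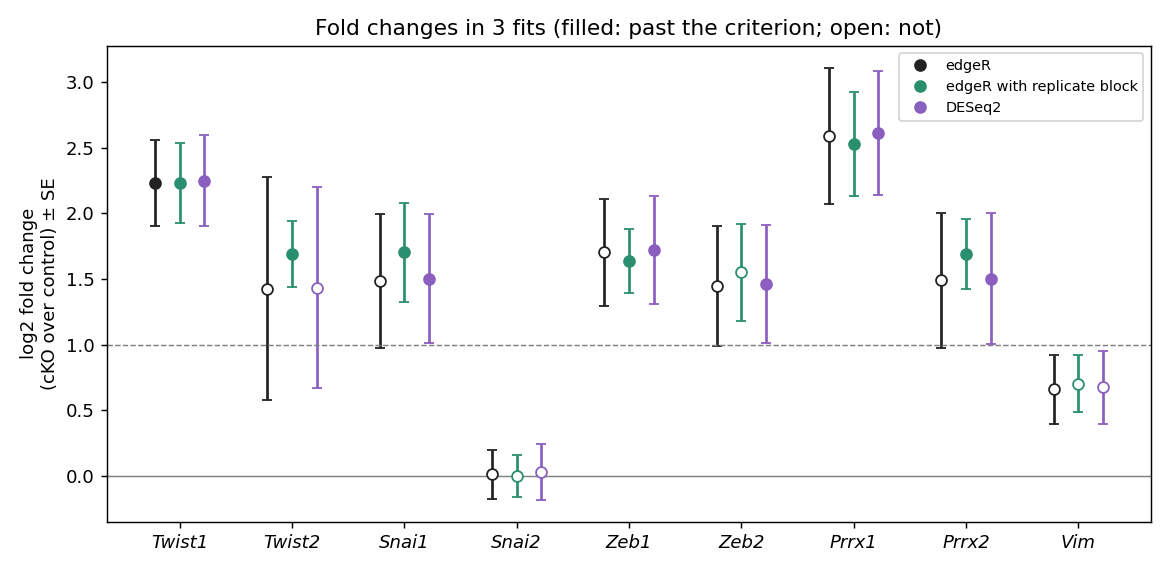
Log2 fold change of cKO over control with its SE for each of the 9 genes, with colours for edgeR, its fit with the replicate block, and DESeq2, filled points past the criterion and a dashed line at 1. The estimates of a gene lay close together, from 2.53 to 2.61 for Prrx1, while the SE of Twist2 fell from 0.85 to 0.25 with the block.

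Replicate 2 was the highest control library for 8 of the 9 genes and the lowest for Snai2. cKO replicate 3 was the lowest of its group for the same 8 genes and the highest for Snai2. Without control replicate 2 the median log2 fold change of the 9 was 2.27, and without cKO replicate 1 it was 1.43.

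Ordered by TPM, a level per transcript length, Vim was highest in the control IEE with 600.8 ± 249.5 TPM (SD, n = 3), followed by Snai2 with a mean of 93.9 TPM and values of 107.3, 84.2 and 90.1 TPM in the 3 libraries. Snai1 had 23.5 ± 18.7 TPM, Prrx2 21.6 ± 17.7 TPM and Twist1 14.8 ± 6.38 TPM. Twist2 followed with 11.1 ± 12.4 TPM, Prrx1 with 9.83 ± 5.44 TPM, Zeb1 with 4.81 ± 1.98 TPM and Zeb2 with 3.76 ± 2.64 TPM. Vim stood apart from Snai2 and Snai2 from Snai1, whereas every later pair of neighbours overlapped between libraries. In the cKO IEE the order was Vim (984.7 ± 230.8 TPM), Snai2 (98.2 ± 15.5 TPM), Twist1 (72.5 ± 29.8 TPM), Snai1 (67.3 ± 22.5 TPM), Prrx1 (61.9 ± 42.5 TPM), Prrx2 (61.9 ± 18.4 TPM), Twist2 (29.8 ± 22.7 TPM), Zeb1 (16.4 ± 8.03 TPM) and Zeb2 (10.7 ± 4.25 TPM). Only Vim and Snai2 did not overlap there, so Snai2 was no longer separated from the next gene.

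Within a library, the ratio of the counts of 2 paralogues does not depend on scaling. The mean log2 ratio of Snai1 to Snai2 was -2.69 ± 1.24 (SD, n = 3) in the control libraries and -0.97 ± 0.69 in the cKO libraries, a difference of 1.72 (exact permutation p = 0.2, two-sided). The differences were 0.82 for Prrx1 to Prrx2 (exact p = 0.3), 0.51 for Twist1 to Twist2 (exact p = 0.5) and 0.07 for Zeb1 to Zeb2 (exact p = 0.8). With 3 libraries against 3 the smallest p this exact test allows is 0.1, and over the 4 pairs the adjusted values of the exact test were 0.6 to 0.8. No pair shared a 50-base word of transcript sequence in GENCODE M21, so a read of that length can be assigned to 1 of them.

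**Figure D3:**
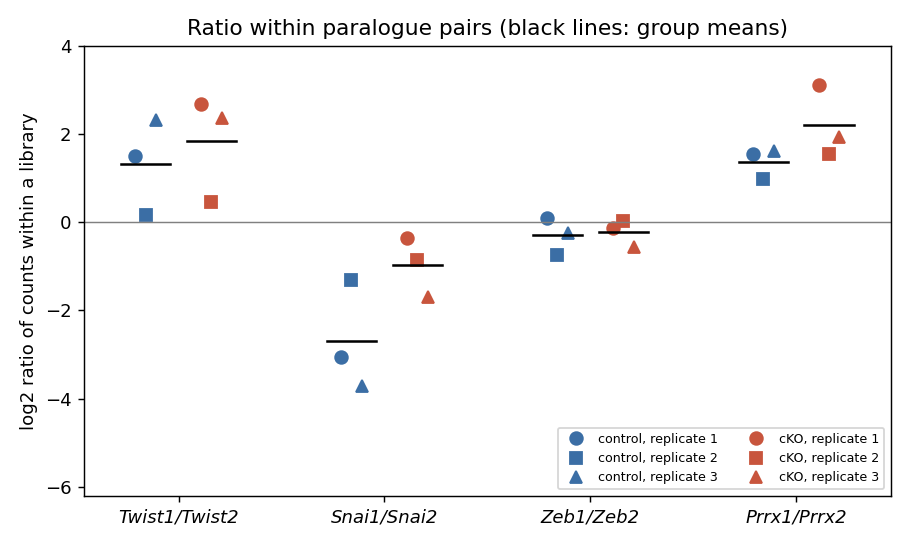
Log2 ratio of counts within each library for the 4 paralogue pairs, with control in blue, cKO in red and black lines for group means. The groups overlapped in every pair, and the widest gap between means was that of Snai1 to Snai2, from -2.69 to -0.97.

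Of 13646 genes with a mean of at least 1 CPM, those whose log2 CPM was most like that of Twist1 over the 6 libraries were Acsl4 (Pearson r = 0.998), Sobp (0.997), Cd14 (0.997), Gabre (0.996) and Jak2 (0.995). Acsl4 encodes a fatty acid-CoA ligase, Cd14 a co-receptor for lipopolysaccharide, Gabre a GABA receptor subunit and Jak2 a cytokine receptor kinase. Among the 9, Prrx1 was closest to Twist1, at rank 16 with r = 0.987, and Snai2 was farthest, at rank 7834 with r = -0.27. These values describe 6 libraries that form 2 groups.

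Other transcription factors linked to EMT lay mostly on the same side. Of 11 tested, 10 had a log2 fold change above 0, with a median of 1.97. In 8 every cKO library was above every control library, as it was in 14.5% of all genes. None passed the criterion in edgeR, where 8 were higher and 1 lower at an unadjusted p of 0.05 or less. Over all genes tested 13.0% were higher and 11.6% lower at that p. DESeq2 called 7 higher and the fit with the replicate block 5, beside 5.05% and 4.16% of all genes. Foxf2, a forkhead factor of mesenchyme, had 18.6 ± 7.64 CPM in the control and 123.2 ± 70.0 CPM in the cKO libraries (SD, n = 3), a log2 fold change of 2.73 ± 0.47 (SE) with an adjusted p of 0.0582 in edgeR and 0.0124 with the block. Sox4, an SRY-related factor, had a log2 fold change of 0.81 ± 0.12 (SE) with an adjusted p of 0.0504 in edgeR, and did not reach a log2 fold change of 1. Sox9, named after its values were seen as the only one below 0, had -0.71 ± 0.19 (SE) with an adjusted p of 0.0937 in edgeR.

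Genes that act with or on these factors were taken in 4 further lists. Of 7 dimerisation partners and Id inhibitors of the TWIST proteins none passed in edgeR and the median log2 fold change was 0.02. At an unadjusted p of 0.05 or less 1 was higher and 1 lower, beside 13.0% and 11.6% of all genes. DESeq2 called none and the block 1, Id4, lower, beside 1.92% of all genes called lower with the block. Id4, an inhibitor of helix-loop-helix dimers, had -0.99 ± 0.23 (SE) with an adjusted p of 0.0777 in edgeR, and -1.02 with an adjusted p of 0.0289 with the block. Tcf4, a partner of TWIST, had 0.44 ± 0.16 (SE) with an adjusted p of 0.155 in edgeR. Of 14 corepressors of SNAIL and ZEB none passed in any of the 3 fits, with a median of -0.09 and 4 lower at an unadjusted p of at most 0.05 in edgeR, beside the 11.6% of all genes. The lowest p among them were those of Rcor1, a scaffold of the demethylase complex, with -0.54 ± 0.14 (SE), and of the deacetylase gene Hdac1, with -0.31 ± 0.10 (SE). Of 11 regulators of SNAIL and TWIST protein stability none passed in edgeR, with a median of 0.18. At an unadjusted p of at most 0.05, 3 were higher and 1 lower, beside 13.0% and 11.6% of all genes. Lats2, a Hippo pathway kinase, had 1.14 ± 0.37 (SE) with an adjusted p of 0.131 in edgeR, 0.0257 in DESeq2 and 0.0344 with the block, and Fbxw7, a ubiquitin ligase subunit, had -0.44 ± 0.16 (SE). Of 12 genes of the TGF-beta pathway, a known inducer of EMT, none passed in any of the 3 fits, with a median of 0.07. In edgeR 1 was higher at an unadjusted p of at most 0.05, beside 13.0% of all genes. The receptor genes with the lowest p were Tgfbr1 and Tgfbr3, of which Tgfbr1 had 0.30 ± 0.11 (SE) and Tgfbr3 1.01 ± 0.45 (SE).

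**Figure D4:**
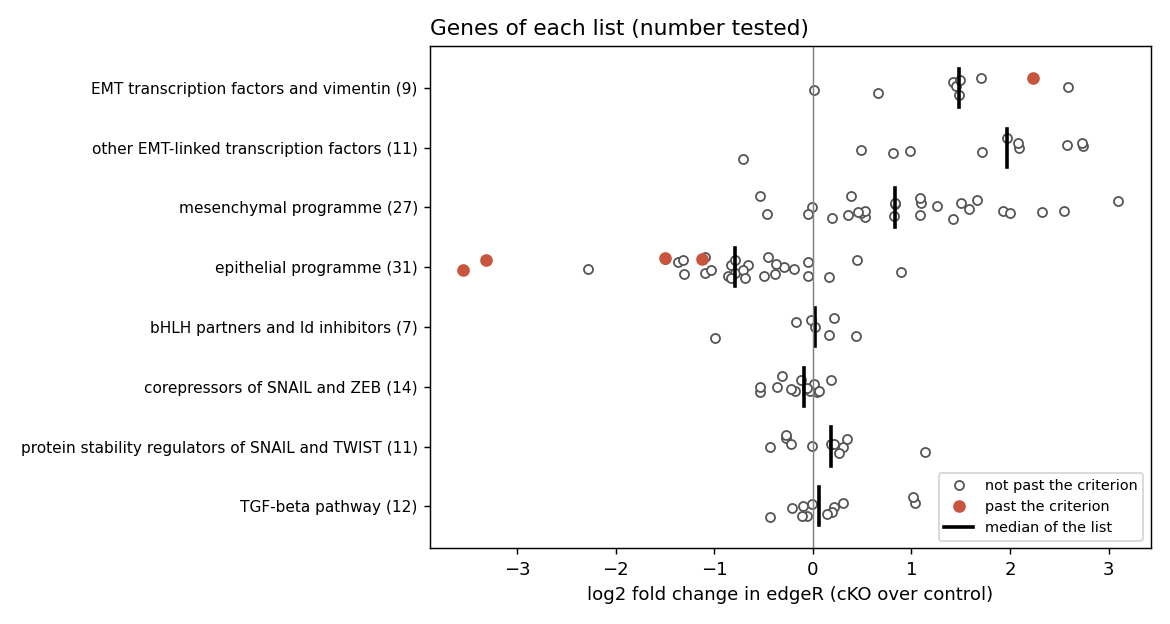
Log2 fold change in edgeR of every gene tested in 8 lists, with 1 point per gene, filled red points past the criterion and black bars for the median of a list. The medians were 1.49 for the 9 genes, 1.97 for the other EMT-linked factors, 0.83 for the mesenchymal and -0.79 for the epithelial programme, and between -0.09 and 0.18 for the remaining 4 lists.

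The epithelial programme, genes of junctions, keratins and epithelial regulators, lay on the other side. Of 31 tested, 4 fell in edgeR and none rose, 28 had a log2 fold change below 0 and the median was -0.79, while 0.29% of all genes tested were called lower in edgeR. DESeq2 and the fit with the replicate block each called 12 lower, beside 1.88% and 1.92% of all genes. Grhl3, a grainyhead factor of epithelial barrier genes, fell from 12.8 ± 3.04 to 1.09 ± 0.21 CPM (SD, n = 3), a log2 fold change of -3.55 ± 0.30 (SE) with an adjusted p of 0.0247 in edgeR. Cldn4, a tight junction claudin, fell at -3.32 ± 0.49 (SE) on the log2 scale, and Pkp1, a desmosomal plakophilin, at -1.12 ± 0.17 (SE), each with an adjusted p of 0.0498 in edgeR. Cdh1, which encodes E-cadherin, had 852.1, 649.9 and 1028 CPM in the control and 265.4, 280.8 and 349.8 CPM in the cKO libraries. The groups of Cdh1 stood apart, and edgeR gave -1.50 ± 0.21 (SE) on the log2 scale with an adjusted p of 0.0498. When 1 library was left out, Grhl3 kept its call in 2 of 6 fits and Cdh1, Cldn4 and Pkp1 in 1 of 6. The 3 genes above 0 were Krt18 (0.90 ± 0.18, SE), Ovol2 (0.45 ± 0.27, SE) and Cldn1 (0.17 ± 0.16, SE), and Epcam, an epithelial adhesion gene, had -0.05 ± 0.21 (SE), all named after their values were seen.

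The mesenchymal programme, genes of matrix, mesenchymal cadherins and contractile proteins, had 23 of 27 log2 fold changes above 0 and a median of 0.83. None passed the criterion in edgeR, where 12 were higher at an unadjusted p of at most 0.05, beside 13.0% of all genes. DESeq2 called 9 higher and the fit with the replicate block 10, beside 5.05% and 4.16% of all genes. Postn, the matrix gene periostin, had 42.9, 58.9 and 37.4 CPM in the control and 742.9, 329.1 and 116.3 CPM in the cKO libraries. Its log2 fold change was 3.09 ± 0.63 (SE) with an adjusted p of 0.0674 in edgeR and 0.0280 with the block. S100a4, a calcium-binding protein gene, had 1.58 ± 0.34 (SE) with an adjusted p of 0.0704 in edgeR. Fn1, fibronectin, had 1.50 ± 0.60 (SE) with an adjusted p of 0.182, and Cdh2, N-cadherin, 0.39 ± 0.45 (SE) with an adjusted p of 0.632, both in edgeR. The 4 genes below 0, named after their values were seen, were Col1a2 (-0.53), Col1a1 (-0.46), Dcn (-0.05) and Sparc (-0.01), all abundant matrix genes.

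In the 250 bases before the start, CAGGTG or CACCTG stood in 12 of the 20 epithelial programme genes with an entry in the promoter table (60.0%), in none of 13 mesenchymal programme genes and in 1 of 7 of the 9 genes, Snai1. It stood in 18.8% of the 11219 tested genes with an entry. Where a gene had several starts, a match in any window was counted. The word began at position -19 before the start in Grhl3, with an abutting CATCTG at -25, at -14 in Cldn4 and at -126 in Snai1, as in the sequences shown above, where each is in capitals. Of the 7 genes with an entry, 6 held no CANNTG at all in this window, while 62.1% of tested genes held one on either strand. Epithelial genes with the word had a median log2 fold change of -0.79 (11 tested, 2 of them called) and those without it -0.69 (7 tested, none called), a description with no test. Cdh1 and Pkp1, the other epithelial genes called in edgeR, had no entry, so their promoters were not searched and they are in neither set. Below 0 were 10 of the 11 with the word and 5 of the 7 without it. Krt18 (0.90) and Epcam (-0.05) held the word, whereas Krt14 (-1.50) and Marveld2 (-2.28) did not. A match is a run of letters and not a measured binding site.

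Dental epithelium markers were abundant in every library, and markers of other cell types were examined beside them. The summed levels of cartilage and of Schwann and neural markers did not overlap between the groups. Those of the papilla, odontoblast, bone, endothelial, immune, pericyte and skeletal muscle markers did. Of 13 dental papilla markers tested, 12 had a log2 fold change above 0, with a median of 1.49. None passed in edgeR, where 10 were higher at an unadjusted p of at most 0.05, beside 13.0% of all genes. DESeq2 and the block each called 6 higher, beside 5.05% and 4.16% of all genes. Summed over all 14 markers the level was 1051 to 6066 CPM in the control and 2700 to 3989 CPM in the cKO libraries. That sum was held mostly by Col1a2, whose log2 fold change was -0.53. Pax9, a dental mesenchyme factor picked outside the rule for named genes, was at 3.92 to 9.39 CPM and 17.1 to 59.7 CPM. Of 9 endothelial markers all were above 0, with summed levels of 303.3 to 382.6 and 352.2 to 1025 CPM, and of 9 immune markers 8 were, with 38.6 to 85.5 and 72.2 to 239.5 CPM. Pericyte markers summed to 290.6 to 368.5 and 284.6 to 678.8 CPM, and cartilage markers to 20.3 to 24.8 and 30.9 to 38.8 CPM. Skeletal muscle markers stayed between 1.26 and 4.09 CPM in all libraries. Of 12 dental epithelium markers 11 were below 0, with summed levels of 13194 to 28914 and 5991 to 10237 CPM, of which Cdh1 passed the criterion. The enamel matrix genes Amelx, Ambn and Enam held an uneven part of that sum, with 1489, 6287 and 14669 CPM in the control and 103.0, 231.8 and 518.4 CPM in the cKO libraries. Without these 3 genes, a choice made after the data had been seen, the other 9 markers summed to 11705, 9496 and 14245 CPM in the control and 5888, 5881 and 9719 CPM in the cKO libraries, so that the groups overlapped. Odontoblast markers summed to 810.4 to 4191 and 373.4 to 976.4 CPM, bone markers to 1004 to 1362 and 812.5 to 1014 CPM, and Schwann and neural markers to 154.2 to 341.5 and 92.4 to 139.5 CPM. The part of these cell types in the values of the 9 genes was not tested. The marker lists were not separate from the programmes above. Krt14, Krt5, Epcam, Cdh1 and Trp63 were also in the epithelial programme, and Col1a2 and Pdgfra in the mesenchymal programme.

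**Figure D5:**
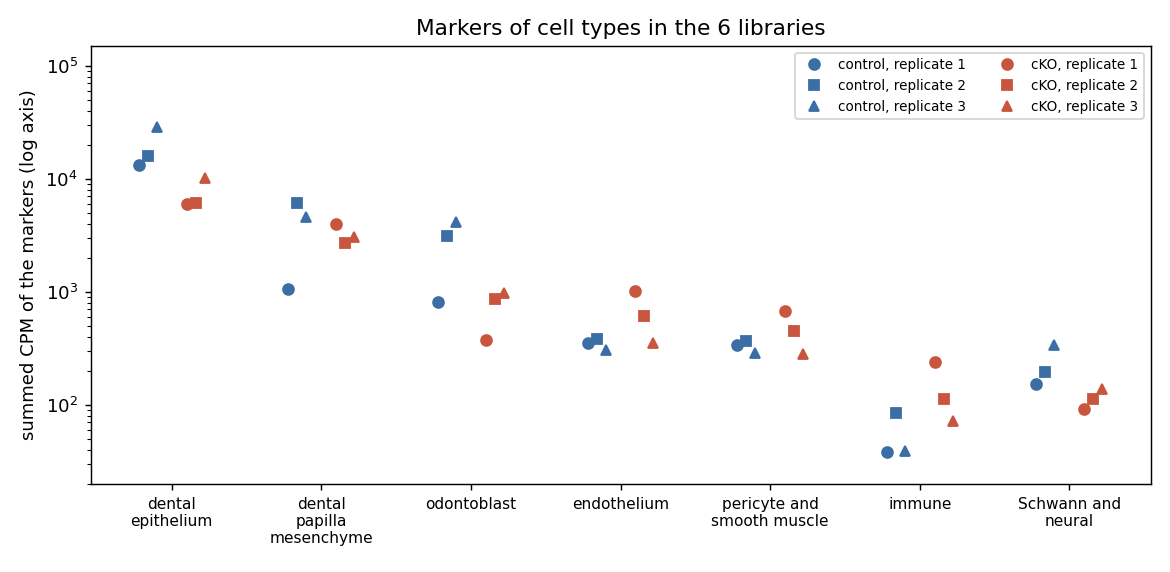
Summed CPM, on a log axis, of the markers of 7 cell types in each library, with control in blue, cKO in red and marker shapes for replicate numbers. Dental epithelium markers were lower in all 3 cKO libraries, though the groups overlapped without the enamel matrix genes Amelx, Ambn and Enam, and immune markers reached 239.5 CPM in replicate 1 of that group.

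Each gene was also set against the summed papilla markers of the same library. The mean log2 ratio was higher in the cKO group by 2.18 for Twist1 and 2.48 for Prrx1, and the groups did not overlap for either. The difference was 1.68 for Twist2, 1.66 for Snai1, 1.58 for Zeb1, 1.51 for Zeb2, 1.66 for Prrx2, 0.65 for Vim and -0.05 for Snai2. Among these the groups stood apart, though only just, for Zeb2 (nearest control and cKO values -6.52 and -6.50) and Prrx2 (-7.13 and -7.09). The share of all genes that stand apart on this ratio was not computed. Without Col1a2 and Pdgfra, which leaves 12 markers, the difference was 0.81 for Twist1 and 1.10 for Prrx1, with overlapping groups, and 0.30 for Twist2, 0.29 for Snai1, 0.20 for Zeb1, 0.13 for Zeb2 and 0.28 for Prrx2. It was -0.73 for Vim, with every cKO library below every control library, and -1.43 for Snai2, with overlapping groups. Both ratios were chosen after the data had been seen and carry no test.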

How the data were processed

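The 9 genes and all lists were chosen with earlier results of these data known. RNA was extracted with TRIzol and libraries were made with a TruSeq RNA kit, per the labels. The submitters' processing notes name BWA 0.7.12, Picard 2.6.0 and StringTie, and the build and counting program are not given in the sources used here. The deposited estimated counts are the authors' unnormalised reads per gene, and 10.9% to 11.5% of them per library had decimals. The deposited TPM and FPKM values are the authors' length-scaled levels, used for ordering genes and, as TPM, in alternatives. The 6 deposited columns of group averages were not used.

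Counts were rounded, filtered with filterByExpr and scaled by TMM. Groups were compared with edgeR 4.0.16 in R 4.3.3 by robust quasi-likelihood F-tests, two-sided, with Benjamini-Hochberg adjustment over 14131 genes. SE is the absolute log2 fold change over the root of F. A count of 0 allows 3 counts, or 0.180 to 0.204 CPM in a library, for counting error only. The labels number biological replicates 1 to 3, without saying whether they are separate animals, so p-values measure the spread between these libraries. Deviations of same-numbered libraries correlated at 0.135, 0.324 and 0.499 across genes, and the numbers were read as pairs from the data. Control replicate 2 with cKO replicate 1 reached 0.144, above the 0.135 of the same-numbered replicate 1 libraries, so that pair was not singled out. Neither the labels nor the methods state pairing for these libraries. The code was tested on simulated data.

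Named genes were the 9, Kdf1, Cdh1, Cdh2 and Fn1, up to 4 genes past the criterion or else the 2 of lowest p in each list, and the 5 genes most correlated with each called gene by log2 CPM (prior count 2). Paralogue ratios had 0.5 counts added. Alternatives were DESeq2 1.42.0, its size factors, upper quartile or library size scaling, no filter, at least 10 counts in every library, limma-voom (limma 3.58.1), limma on log2(TPM + 1) and log2(TPM + 0.1), the replicate block, no robust option and the omission of each library. The papilla marker ratio was added after the data had been seen. Promoter windows came from RefSeq (GRCm38.p6) and transcript words from GENCODE M21.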

Additional observations from a re-analysis of the deposited data

How the results depend on the processing

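Of the 9 genes, 1 passed the criterion in edgeR, as it did with upper quartile scaling, without a filter and without the robust option. None, or 0, passed with DESeq2's size factors, library size scaling, at least 10 counts in every library, limma-voom or either fit on TPM, where Twist1 had adjusted p from 0.0515 to 0.0613, and in each of these 7 genes reached an unadjusted p of 0.05 or less. DESeq2 and the fit with the replicate block each called 6, against 980 and 860 genes called in all and 61 in the reported fit. Leaving out 1 library gave 0 to 3, with 3 (Twist1, Zeb1 and Prrx1) without cKO replicate 3 and 0 without any other library. The replicate block changed the calls of 5 genes, Twist2, Snai1, Zeb1, Prrx1 and Prrx2, and of no other of the 9. The number of genes with every cKO library above every control library, 6, was 5 to 8 with other scalings, other filters, on TPM and with each library left out. The log2 fold change of Snai2 was -0.16 to 0.15 when 1 library was left out, negative without cKO replicate 3 (-0.16) and without control replicate 2 (-0.10). The difference in log2 ratio of Twist1 to Twist2 was -0.076 to 1.20 when 1 library was left out, negative without control replicate 2. That of Zeb1 to Zeb2 was -0.15 to 0.26, negative without control replicate 2 (-0.15) and without cKO replicate 2 (-0.062). The ratio of Vim to papilla markers turned to -0.73 without Col1a2 and Pdgfra. The cause of these changes was not tested. Among single-gene fold changes the direction held under every setting for the other 8 genes. Ordered by FPKM in place of TPM, Prrx2 preceded Prrx1 in the cKO group and no other place changed. By adjusted p alone the same 1 gene passed.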
